A study of Mus musculus with 238 samples.

Results

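Blood-brain barrier endothelial genes were followed through the mouse brain as a set of 9 genes of the 21076 in the count table: Cldn5, Ocln, Cdh5, Pecam1, Slc2a1, Mfsd2a, Abcb1a, Slco1c1 and Tfrc. They were chosen by name, and every library of every brain region was read for them. The animals were C57BL/6JN mice aged 19 months in 2 separate experiments. In the diet experiment 5 females were dietary restricted (aDR) and 4 females fed ad libitum (AL). In the plasma experiment 3 males received plasma of young mice (YMP) and 4 males received PBS, both by retro-orbital injection. No genetic change is given in the labels, and no group of untouched animals was analysed here. Each brain was divided into 15 regions, and the livers of the diet mice were sequenced too, where the restricted females carry the label DR. All males were in one experiment and all females in the other, so sex and experiment cannot be told apart, and no test was made between them.

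The barrier is formed by endothelial cells of brain capillaries, sealed to each other by tight junctions and poor in transcytosis, so that most nutrients cross on carriers. Cldn5 (claudin-5) and Ocln (occludin) are membrane proteins of the tight junction. Cdh5 (VE-cadherin) and Pecam1 (CD31) hold endothelial cells together in all vascular beds. Slc2a1 (GLUT1) carries glucose, Mfsd2a carries lysophosphatidylcholine with docosahexaenoic acid and restrains transcytosis, and Slco1c1 carries thyroid hormone. Abcb1a is a P-glycoprotein that pumps drugs back into blood, and Tfrc is the transferrin receptor, through which iron enters. Several of the genes are also made outside the endothelium: Slco1c1 and Ocln in choroid plexus epithelium, Slc2a1 in that epithelium and in glia, Tfrc in neurons, and Mfsd2a in hepatocytes.

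The promoters of Mfsd2a and Cldn5 are shown because these were the members called between the diets, in opposite directions. The stretches are the 250 bases before the annotated start, from RefSeq on build GRCm38.p6, at chr4:122961189-122961438 on the minus strand for Mfsd2a and chr16:18776597-18776846 on the plus strand for Cldn5. Capitals mark ACGTG, the core of the hypoxia response element, in Mfsd2a, and the reverse complement of the GC box GGGCGG in Cldn5.
Mfsd2a: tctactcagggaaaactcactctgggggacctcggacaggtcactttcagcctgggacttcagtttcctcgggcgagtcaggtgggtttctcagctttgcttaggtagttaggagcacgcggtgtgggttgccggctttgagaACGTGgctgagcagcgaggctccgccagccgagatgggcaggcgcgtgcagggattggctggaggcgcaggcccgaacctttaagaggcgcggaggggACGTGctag
Cldn5: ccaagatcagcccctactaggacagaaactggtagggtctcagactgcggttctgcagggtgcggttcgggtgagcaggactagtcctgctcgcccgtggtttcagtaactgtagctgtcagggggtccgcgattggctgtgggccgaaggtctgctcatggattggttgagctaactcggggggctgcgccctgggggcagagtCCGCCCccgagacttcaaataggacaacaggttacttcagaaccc

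Both strands were searched, and 7 of the 9 members had an entry; Pecam1 and Cdh5 are named only. ACGTG was found 2 times before Mfsd2a, 107 and 9 bases from the start, and 1 time before Slc2a1. It was also in 1 of the 2 entries for Tfrc, and the letters were not found in this window of Cldn5, Ocln, Abcb1a or Slco1c1. The Abcb1a window, chr5:8566841-8567090, lies far before the gene start given below (chr5:8660077), so the bases before that start were not searched. Of all 32851 promoters of the same length, 16.6% held ACGTG, and 6.0% held the E-box CACGTG, which contains it and was found 0 times before Mfsd2a. GGGCGG stood 45 bases before the start of Cldn5 and was in 32.7% of all promoters, and it was not found before Mfsd2a. Other motifs searched were the ETS core GGAA, in 93.4% of all promoters, and its longer form CCGGAA, in 12%. The letters TGTTCT, part of the glucocorticoid response element, were in 16.1%, and the TATA box TATAAA was in 12.4%. A match is a description of the letters, and no binding was measured here.

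On GRCm38 with GENCODE vM21, Cldn5 lies at chr16:18776847-18778262 (plus strand) and Ocln at chr13:100496507-100552718 (minus). The adhesion genes Cdh5 and Pecam1 lie at chr8:104101625-104144511 (plus) and chr11:106654217-106750628 (minus). The carriers Slc2a1 and Mfsd2a lie at chr4:119108711-119137983 (plus) and chr4:122946850-122961188 (minus), Slco1c1 at chr6:141524368-141570177 (plus), and Tfrc at chr16:32608920-32632794 (plus). Abcb1a lies at chr5:8660077-8748575 (plus). Its values are uncertain, because 22.5% of its 50-base stretches also occur in transcripts of other genes, most often its paralog Abcb1b. In addition, 10.1% of its exon bases overlap Gm42686, and these shares can count the same bases. For Slc2a1, 3.0% of exon bases overlap the antisense gene Gm12868, and the libraries carry no strand.

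Depth differed between libraries, from 0.606 M to 32.4 M counts (M, mega), the median being 8.44 M. A total under 2 M was found in 6 of them. Counts of 8 members were at least 13 in each of the 229 brain libraries. Cdh5 was the thinnest, with a median of 22 counts, 0 counts in 1 brain library and fewer than 10 in 29. Levels are given as CPM, the counts scaled to the library total after TMM normalization over all libraries, and the mean is given ± SD over mice. Marker genes of the labelled regions were detected in their regions, but choroid plexus epithelium markers were spread unevenly over the libraries labelled choroid plexus, corpus callosum and SVZ (subventricular zone), and their levels are given beside Slco1c1 and Ocln. The pons library of aDR mouse 67 also stood apart, with a Slco1c1 level of 6.76 CPM, the lowest of all brain libraries.

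Per kilobase of exon, Slc2a1 was the most abundant member in AL brain, with a median over regions of 36.1 CPM per kb. Cldn5 followed with 10.2, then Slco1c1 with 7.35, Tfrc with 7.27 and Mfsd2a with 6.35 CPM per kb. The junction gene Ocln was at 4.33, Pecam1 at 2.66, Abcb1a at 2.18 and Cdh5 at 0.670 CPM per kb. These are levels of whole tissue, to which other cell types that make Slc2a1 add.

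The first question was where in the brain the genes are high or low in control mice. All 9 members differed between regions in AL and in PBS mice (edgeR quasi-likelihood F test), as did 98.1% of all genes in AL and 96.1% in PBS mice, so this says nothing particular about them. Of the 135 contrasts of a member in a region against the mean of the other 14 regions, 55 were called in AL mice, 28 higher and 27 lower, beside 47.6% of contrasts over all genes. In PBS mice 50 were called, 25 higher and 25 lower, beside 41.3% over all genes. The calls coincided in 37 contrasts, 23 higher and 14 lower in both sets of animals, and 0 were called in opposite directions. The fitted difference had the same sign in 113 of the 135 contrasts. How often AL and PBS mice matched over all genes was not computed, so these counts say nothing particular about the members. With 1 mouse left out, 36 (without AL mouse 69) to 46 of the 55 calls and 39 (without PBS mouse 84) to 44 of the 50 calls were kept.

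**Figure D1:**
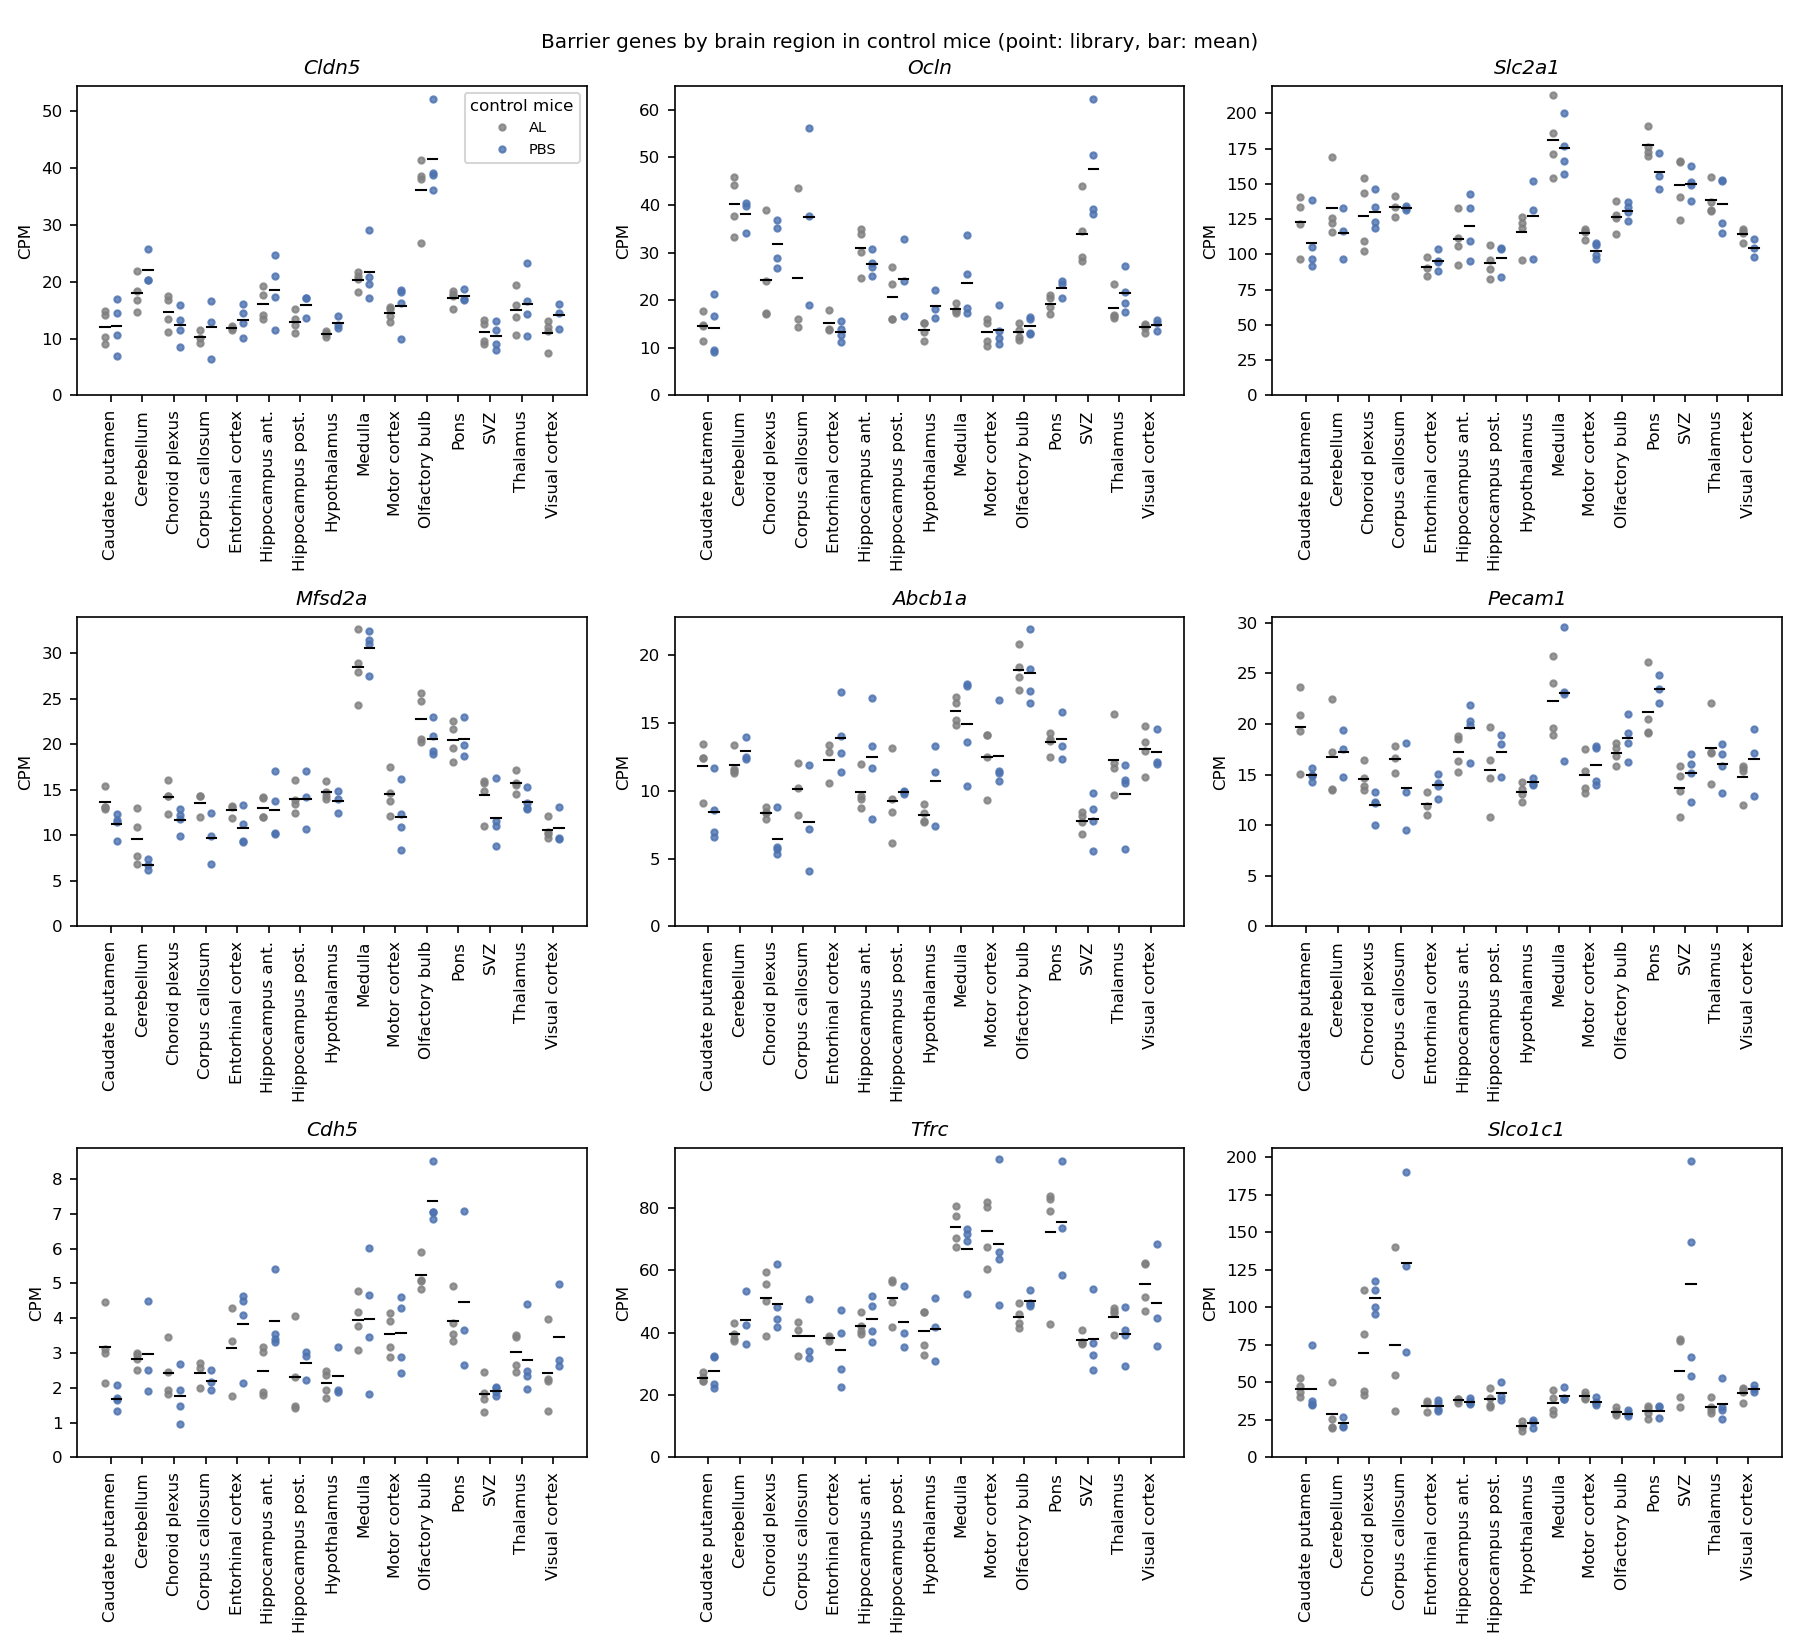
Level of each member in every control library by brain region, in CPM on a linear axis from 0, for AL females and PBS males, where points are libraries and bars are means. Cldn5 stood highest in olfactory bulb, Mfsd2a in medulla and Slco1c1 in corpus callosum, choroid plexus and SVZ in both sets of animals.

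Medulla was the region with the most members called higher in both AL and PBS mice, 7 of 9, beside 31.9% of all genes called higher there in AL and 30.2% in PBS mice (62.3% and 56.7% in either direction). The differences, AL first and then PBS, were 0.99 and 1.30 log2 units for Mfsd2a, 0.70 and 0.58 for Tfrc, and 0.55 and 0.54 for Slc2a1. They were near 0.5 for the junction and adhesion genes: 0.51 and 0.49 for Cldn5, 0.48 and 0.52 for Pecam1, and 0.46 and 0.48 for Cdh5. Abcb1a differed by 0.50 and 0.47, while Ocln and Slco1c1 were not called in medulla. The median of the members in medulla was 0.50 in AL and 0.49 in PBS mice, against −0.0086 and 0.0074 for all genes. Of 21 general endothelial genes, 13 were called higher and 0 lower in AL medulla, and 12 and 0 in PBS medulla.

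Cldn5 was highest in olfactory bulb. Its level there was 41.4, 38.0, 26.9 and 38.6 CPM in the 4 AL mice and 38.8, 39.1, 52.2 and 36.1 CPM in the 4 PBS mice. No library of the next region, medulla in AL and cerebellum in PBS mice, reached these values. The difference from the other regions was 1.40 log2 units in AL (SE 0.101, edgeR adjusted p = 5.08e-17) and 1.51 in PBS mice (SE 0.157, adjusted p = 3.67e-11). The lowest means were 10.3 ± 1.2 CPM (SD, n = 3) in AL corpus callosum and 10.4 ± 2.3 CPM (SD, n = 4) in PBS SVZ, a range from lowest to highest region of 3.53-fold in AL and 3.98-fold in PBS mice. Below olfactory bulb, each region overlapped the next in order in both groups.

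Ocln, the other tight junction gene, had a different order. It was highest in cerebellum of AL mice, at 33.2, 37.7, 44.1 and 45.7 CPM, and stood at 39.8, 34.2 and 40.4 CPM in cerebellum of PBS mice. The cerebellar difference was 1.10 and 0.83 log2 units (AL and PBS). Ocln was lower than elsewhere in olfactory bulb (−0.62 and −0.64), where Cldn5 was highest, and in caudate putamen (−0.45 and −0.76), motor cortex (−0.59 and −0.75) and visual cortex (−0.50 and −0.65). In SVZ it was higher by 0.84 and 1.18, and SVZ libraries also differed in plexus markers. With the choroid plexus left out, Pearson r of the log2 levels of Cldn5 and Ocln over 14 regions was −0.030 in AL and −0.14 in PBS mice.

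The adhesion genes varied less or were measured less well. Cdh5 was highest in olfactory bulb, at 5.91, 4.84, 5.07 and 5.10 CPM in AL and 7.05, 6.84, 7.05 and 8.51 CPM in PBS mice. It was higher there by 0.89 log2 units in AL and 1.38 in PBS mice, and lower in SVZ (−0.78 and −0.72). Pecam1 had a range of 1.85-fold in AL mice, the narrowest of the 9 members there, and of 1.96-fold in PBS mice, where Slc2a1 had 1.83-fold, and 0 of its 14 neighbouring pairs of regions were apart in either group. It was highest in medulla in AL mice (22.3 ± 3.7 CPM, SD, n = 4), and higher in pons by 0.40 and 0.56 log2 units.

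Among the carriers, Mfsd2a had a marked order, highest in medulla and lowest in cerebellum. Medullary levels were 28, 28.9, 32.7 and 24.3 CPM in AL and 27.6, 31.4, 31.0 and 32.4 CPM in PBS mice. Cerebellar levels were 7.78, 10.9, 13.0 and 6.88 CPM in AL and 6.21, 7.41 and 6.71 CPM in PBS mice, with no overlap with medulla. The cerebellum was lower than the other regions by 0.68 log2 units in AL mice (log2 difference −0.68, edgeR adjusted p = 8.57e-08) and differed by −1.03 in PBS mice (adjusted p = 7.76e-07). Olfactory bulb (0.66 and 0.72) and pons (0.48 and 0.68) were higher. In cerebellum Cldn5 was higher (0.33 and 0.51) while Mfsd2a was lower, so the members did not rank the regions alike.

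Slc2a1 was highest in medulla (181 ± 25 CPM in AL and 175 ± 19 CPM in PBS mice, SD, n = 4 each) and lowest in entorhinal cortex, at 90.2, 84.8 and 98.3 CPM in AL and 104, 95.6, 88.0 and 94.4 CPM in PBS mice. Pons was higher by 0.51 and 0.39 log2 units, and entorhinal cortex and posterior hippocampus were lower (−0.51 and −0.40, −0.46 and −0.38). Abcb1a was highest in olfactory bulb, at 18.4, 17.4, 19.1 and 20.8 CPM in AL and 19.0, 21.9, 17.3 and 16.5 CPM in PBS mice. It was lower in SVZ (−0.60 and −0.50) and choroid plexus (−0.49 and −0.88). Tfrc was high in pons (0.67 and 0.80), medulla and motor cortex (0.67 and 0.61). It was lowest in caudate putamen, at 25.8, 27.3, 24.5 and 24.4 CPM in AL and 32.2, 23.7, 22.2 and 32.7 CPM in PBS mice (−0.94 and −0.80 log2 units).

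Slco1c1 stood apart from the other carriers. Its levels in corpus callosum were 30.7, 140 and 54.7 CPM in AL and 190, 128 and 70.2 CPM in PBS mice, so single mice differed several-fold. It was called higher in corpus callosum (1.03 and 1.65 log2 units), choroid plexus (0.88 and 1.31) and SVZ (0.57 and 1.51), where plexus markers were uneven between libraries. The lowest levels were in hypothalamus, at 17.7, 24.3, 20.2 and 21.1 CPM in AL and 24.9, 23.7 and 19.8 CPM in PBS mice (−0.95 and −0.99). Cerebellum was lower as well (−0.48 and −1.0). Of its AL libraries, that of mouse 68 had 50.4 CPM of Slco1c1 and 2071 CPM of plexus markers. The other AL mice had 19.9, 25.6 and 20.1 CPM of Slco1c1 there.

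The correlation of each member's region means (log2) between AL and PBS mice ran from 0.72 for Pecam1 to 0.95 for Mfsd2a over 15 regions, as a description of shared dissections. Among members, Abcb1a and Cdh5 had the closest order of regions, with r 0.91 in AL and 0.92 in PBS mice. Of 12067 other genes, those most like Cldn5 over the regions in AL mice were Timmdc1 (r 0.94, and 0.90 in PBS), Selenot (0.94 and 0.84) and Marf1 (0.93 and 0.93). For Ocln they were Cald1 (0.89 and 0.81), Thrsp (0.87 and 0.72) and Lats2 (0.87 and 0.85), and for Mfsd2a Mtx2 (0.93 and 0.76), Ano4 (0.91 and 0.81) and Eml2 (0.90 and 0.93). The nearest to Cdh5 was Flt1, a VEGF receptor of endothelium (0.87 and 0.77), followed by Uggt1 (0.86 and 0.41) and Cltc (0.84 and 0.74). Pecam1 was nearest to Olfr287 (0.94 and 0.77), Adgrl4, an endothelial adhesion receptor (0.90 and 0.88), and Hcn2 (0.89 and 0.67). Abcb1a was nearest to Wfdc1 (0.94 and 0.87), Snapc5 (0.85 and 0.50) and March11 (0.85 and 0.71). The nearest to Slc2a1 were Cdc37l1 (0.92 and 0.80), Cdc42ep2 (0.91 and 0.77) and Pmp22, a myelin gene (0.90 and 0.80). Tfrc was nearest to Klc2 (0.90 and 0.86), Camk2g (0.89 and 0.79) and Map1lc3a (0.88 and 0.47), and among those nearest to Slco1c1 were Relb (0.82 and 0.73) and Ddx54 (0.81 and 0.50). All these coefficients were picked as the highest of many over 15 points.

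Library by library, after the mean of each region and treatment was removed, the members moved together only weakly. Between single members r ran from −0.27 to 0.62 over 131 diet libraries and from −0.28 to 0.67 over 98 plasma libraries, highest for Ocln with Slco1c1 in both. Of the genes outside the list, the highest r with the members' mean in the diet experiment was that of Slco1a4, another organic anion carrier of barrier endothelium (0.70, and 0.56 in the plasma experiment). Epas1, a hypoxia-inducible transcription factor abundant in endothelium, followed (0.70 and 0.68), then Itih5 (0.69 and 0.56), Sgms1 (0.65 and 0.27) and Atp10a (0.64 and 0.50). Among the rest of the 10 highest were Adamts1 (0.62 and 0.091), Flt1 (0.62 and 0.70), Vwa1 (0.61 and 0.33) and Tns2 (0.57 and 0.62). The median r in the diet experiment was −0.016 over all 12062 genes, and lists of other cell types were also above it. It was 0.40 over astrocyte markers, 0.33 over the general endothelial list, 0.28 over choroid plexus, 0.27 over pericyte, 0.26 over hepatocyte, 0.23 over oligodendrocyte and −0.014 over neuron markers. In the plasma experiment the general endothelial list was at 0.44, pericyte markers at 0.44, astrocyte markers at 0.18, and choroid plexus, oligodendrocyte, hepatocyte and neuron markers between −0.081 and 0.028. Libraries of 1 mouse share the animal, and all share depth and normalization.

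The diet comparison asked whether dietary restriction of old females changed the barrier genes. Over all brain regions Cldn5 was lower and Mfsd2a higher in aDR than in AL mice. These were 2 of 9 members called, beside 1.82% of 15252 genes (1.02% higher and 0.800% lower). Kdr, Tek and Flt1, receptors for VEGF and angiopoietin on endothelium in general, were also lower, while the median of the members (0.0048 log2) was close to that of all genes (−0.0051). In tissue RNA, fewer endothelial cells and less RNA per cell cannot be told apart.

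Each mouse was given 1 value per gene, its log2 CPM over regions after the region effects were fitted. For Cldn5 the 5 aDR mice had values of 3.37, 3.43, 3.70, 3.35 and 3.31, and the 4 AL mice 3.81, 4.06, 3.86 and 3.91. All aDR mice were below all AL mice. The difference was −0.48 log2 units (SE 0.081, 0.718-fold, limma adjusted p = 0.0189). With each mouse left out it ran from −0.54 to −0.43 with adjusted p from 0.00327 to 0.0698. The call was lost without aDR mouse 62, aDR mouse 65, AL mouse 66, AL mouse 68 or AL mouse 69.

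For Mfsd2a the aDR mice had 4.30, 4.36, 4.35, 4.11 and 4.44 and the AL mice 3.93, 3.94, 3.98 and 3.93 log2 CPM, again without overlap but with the restricted mice above. The difference was 0.37 log2 units (SE 0.058, 1.29-fold, limma adjusted p = 0.0143). It ran from 0.33 to 0.42 when each mouse was left out. The call was lost without AL mouse 66 (adjusted p = 0.0563) or AL mouse 69 (adjusted p = 0.0512).

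The count of members called was 0 without AL mouse 66 or AL mouse 69, 1 without aDR mouse 62, aDR mouse 65 or AL mouse 68, and at most 3 otherwise. The number of all genes called fell from 277 to 49 without AL mouse 66, 66 without AL mouse 68, 71 without AL mouse 69, 85 without aDR mouse 62, 89 without AL mouse 63 and 110 without aDR mouse 65. A fit on all libraries with the mouse as a block called 6 members, Cldn5, Mfsd2a, Slc2a1, Pecam1, Cdh5 and Tfrc, among 1491 genes (9.78%). It assumed the same correlation within mice for all genes, so it can give too small a p-value where a gene varied more between mice. Without the pons library of aDR mouse 67 Cldn5 was at −0.47 (adjusted p = 0.0129) and Mfsd2a at 0.38 (adjusted p = 0.0137). Without choroid plexus, corpus callosum and SVZ they were at −0.47 (adjusted p = 0.0327) and 0.37 (adjusted p = 0.0104). Both alternatives were chosen after seeing the data.

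Next to Cldn5, the adhesion genes were at lower values in restricted mice without passing the test. Pecam1 was 3.92, 3.79, 3.67, 3.71 and 3.94 in aDR and 3.96, 4.10, 4.17 and 4.04 in AL mice (−0.26 log2, SE 0.065, limma adjusted p = 0.0731, and 7.34e-05 with the mouse as a block). Cdh5 was 1.45, 1.33, 0.81, 1.29 and 1.53 in aDR and 1.53, 1.64, 1.59 and 1.76 in AL mice (−0.35 log2, SE 0.13, adjusted p = 0.197, and 8.63e-05 with the block). For both genes each aDR mouse was below each AL mouse. Without aDR mouse 67, Pecam1 was called (adjusted p = 0.0431).

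Of the remaining carriers, Slc2a1 was at 7.33, 7.22, 7.19, 7.12 and 7.12 in aDR and 6.89, 6.98, 7.11 and 7.08 log2 CPM in AL mice. Each restricted mouse was above each AL mouse (0.18 log2, SE 0.053, limma adjusted p = 0.114, and 0.00104 with the block). Tfrc was at 5.88, 5.80, 5.59, 5.79 and 5.73 in aDR and 5.66, 5.66, 5.44 and 5.52 in AL mice, and the groups overlapped (0.19 log2, adjusted p = 0.155, and 0.00379 with the block). Values without overlap were thus found for 5 of the 9 members, Cldn5, Mfsd2a, Slc2a1, Pecam1 and Cdh5, beside 8.48% of all genes. For Slco1c1 the difference was −0.16 (adjusted p = 0.510), for Ocln 0.035 (adjusted p = 0.841) and for Abcb1a 0.0048 (adjusted p = 0.982), all with overlap.

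**Figure D2:**
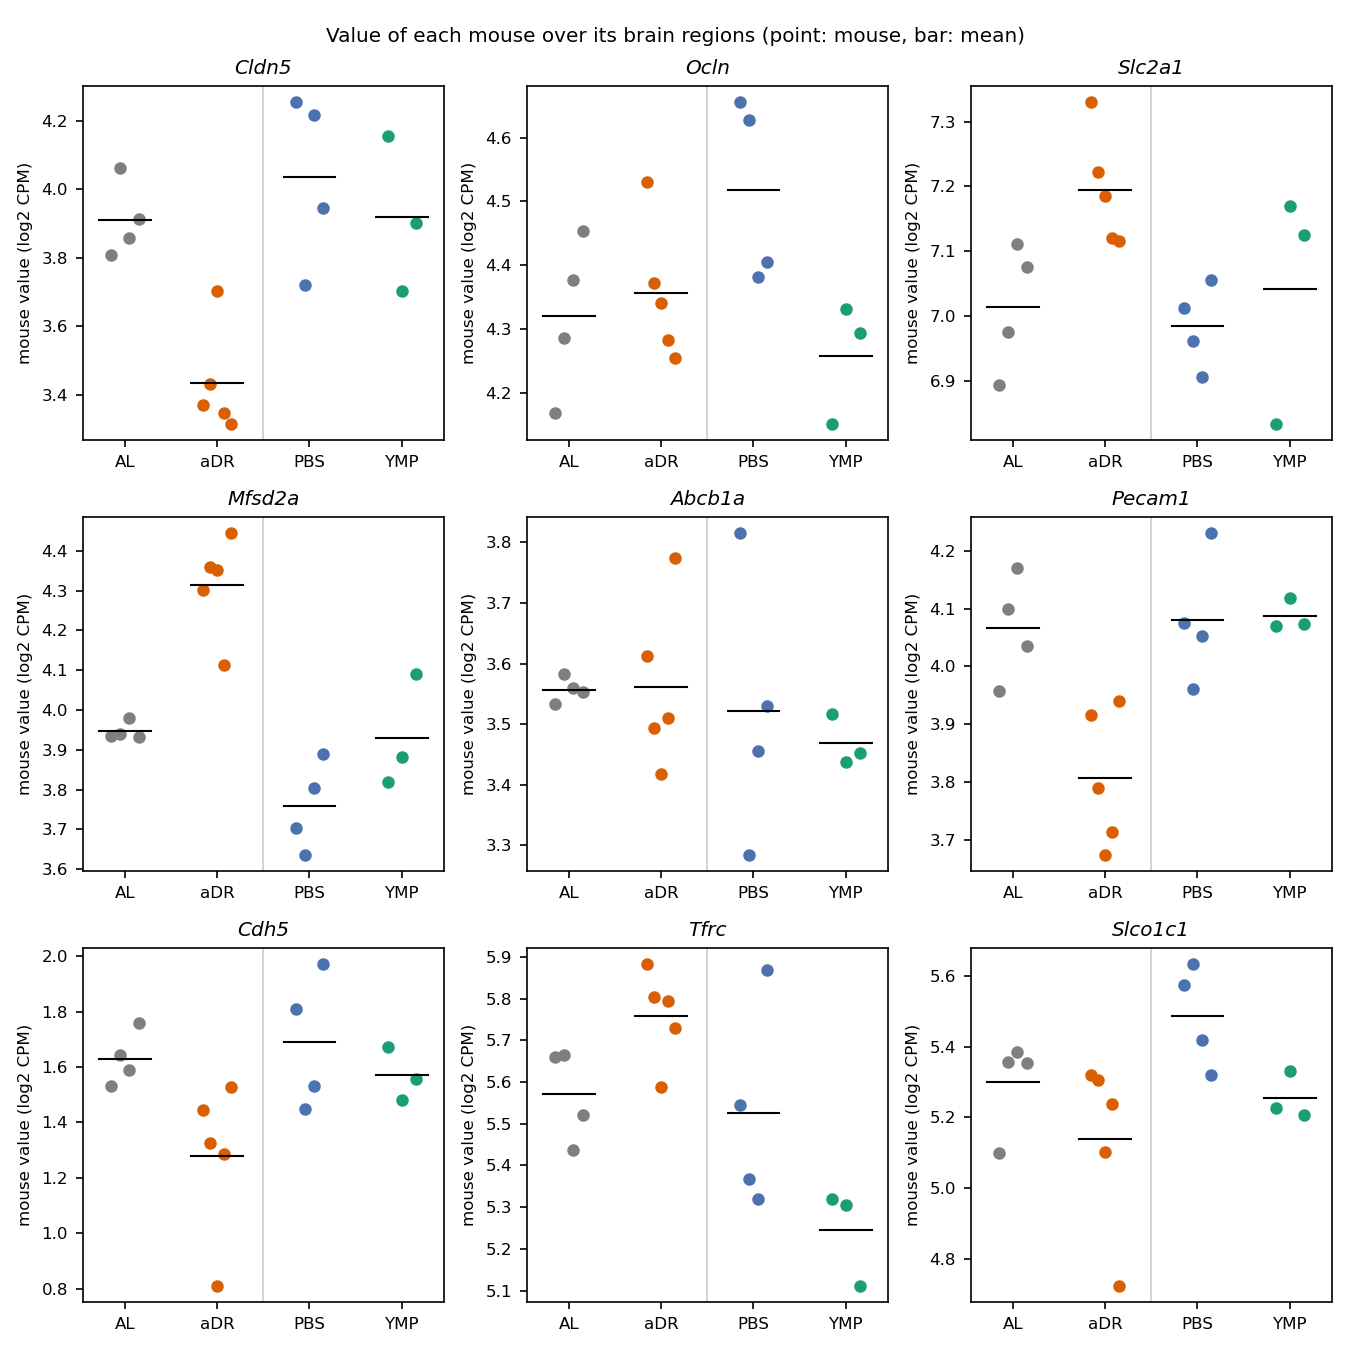
Value of each member per mouse over all brain regions (log2 CPM after fitted region effects, on an axis that does not start at 0), for aDR and AL females and for YMP and PBS males, with group means. The aDR mice lie below the AL mice for Cldn5 and above them for Mfsd2a, while the plasma groups overlap for every member but Ocln.

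The other genes of the barrier were read from lists. Of 12 other tight junction and adhesion genes, 0 were called higher and 1 lower in aDR mice, Pard3, a polarity protein (−0.14, limma adjusted p = 0.0397), and 9 had negative differences (median −0.038). Of 18 other transporters, 2 were called higher and 0 lower: Abcg2, a drug efflux pump (0.26, adjusted p = 0.0414), and Slc3a2, the heavy chain of amino acid carriers (0.10, adjusted p = 0.0439). Of 14 genes of Wnt and Norrin signalling, which maintains the barrier, 0 were called and the median was −0.043. Those with the smallest p were Lef1 (−0.24, adjusted p = 0.270) and Fzd4 (0.19, adjusted p = 0.290). The calls of Pard3, Abcg2 and Slc3a2 were lost without choroid plexus, corpus callosum and SVZ (adjusted p = 0.103, 0.0652 and 0.0794). With each mouse left out in turn, Pard3 was called in 1, Abcg2 in 2 and Slc3a2 in 1 of 9 fits.

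The general endothelial list held the most calls. Of its 21 genes 0 were called higher and 6 lower, and 17 had negative differences (median −0.16 against −0.0051 for all genes). The 4 with the smallest p were Kdr (−0.56, limma adjusted p = 0.00243), Tek (−0.37, adjusted p = 0.00388), Flt1 (−0.25, adjusted p = 0.0149) and Tie1 (−0.26, adjusted p = 0.0251). With each mouse left out, 2 to 7 genes of the list were called, and Kdr and Tek were called in 9 of 9 such fits, Flt1 in 6 and Tie1 in 4. The markers of fenestrated, sinusoidal or lymphatic endothelium, of which 4 of 6 were tested, had 0 called.

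Markers of neighbouring cells moved in part with these genes, and their part in the result was not tested. Of 13 pericyte and smooth muscle markers, 1 was called lower (Higd1b, −0.35, limma adjusted p = 0.0211) and 0 higher. Their summed level, as the median over each mouse's libraries, was 149 to 156 CPM in aDR and 157 to 174 CPM in AL mice, without overlap. Some mice lack libraries of some regions, and these medians were not adjusted for region. The same median for the general endothelial genes was 501 to 541 CPM in aDR and 532 to 595 CPM in AL mice. For blood markers, 0 of 5 called, it was 3.96 to 18.6 CPM in aDR and 4.19 to 6.98 CPM in AL mice. Of 7 astrocyte markers 1 was called higher (Gjb6, 0.28, adjusted p = 0.0369) and of 6 microglia markers 1 was called lower (Cx3cr1, −0.13, adjusted p = 0.0439). With each mouse left out, Higd1b was called in 4, Gjb6 in 1 and Cx3cr1 in 2 of 9 fits, and 0 to 4 of the blood markers were called. Of 12 choroid plexus, 7 fibroblast, 7 oligodendrocyte, 8 neuron and 3 hepatocyte markers, 0 were called.

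Region by region, the diet differences of Cldn5 and Mfsd2a pointed the same way throughout. In 0 of 135 tests was a member called within a single region (edgeR), beside 0.0525% of tests over all genes, but 46 had an unadjusted p under 0.05, beside 6.24% over all genes. These were 11 for Cldn5, 10 for Mfsd2a, 7 for Tfrc, 6 for Slc2a1, 4 for Slco1c1, 3 each for Pecam1 and Cdh5, and 1 each for Ocln and Abcb1a. Cldn5 and Pecam1 had lower fitted values in aDR mice in 15 of 15 regions and Mfsd2a had higher ones in 15 of 15. Slc2a1 and Tfrc were higher in 14 regions, Cdh5 lower in 14 and Slco1c1 lower in 13. The regions share mice, so they are not independent.

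**Figure D3:**
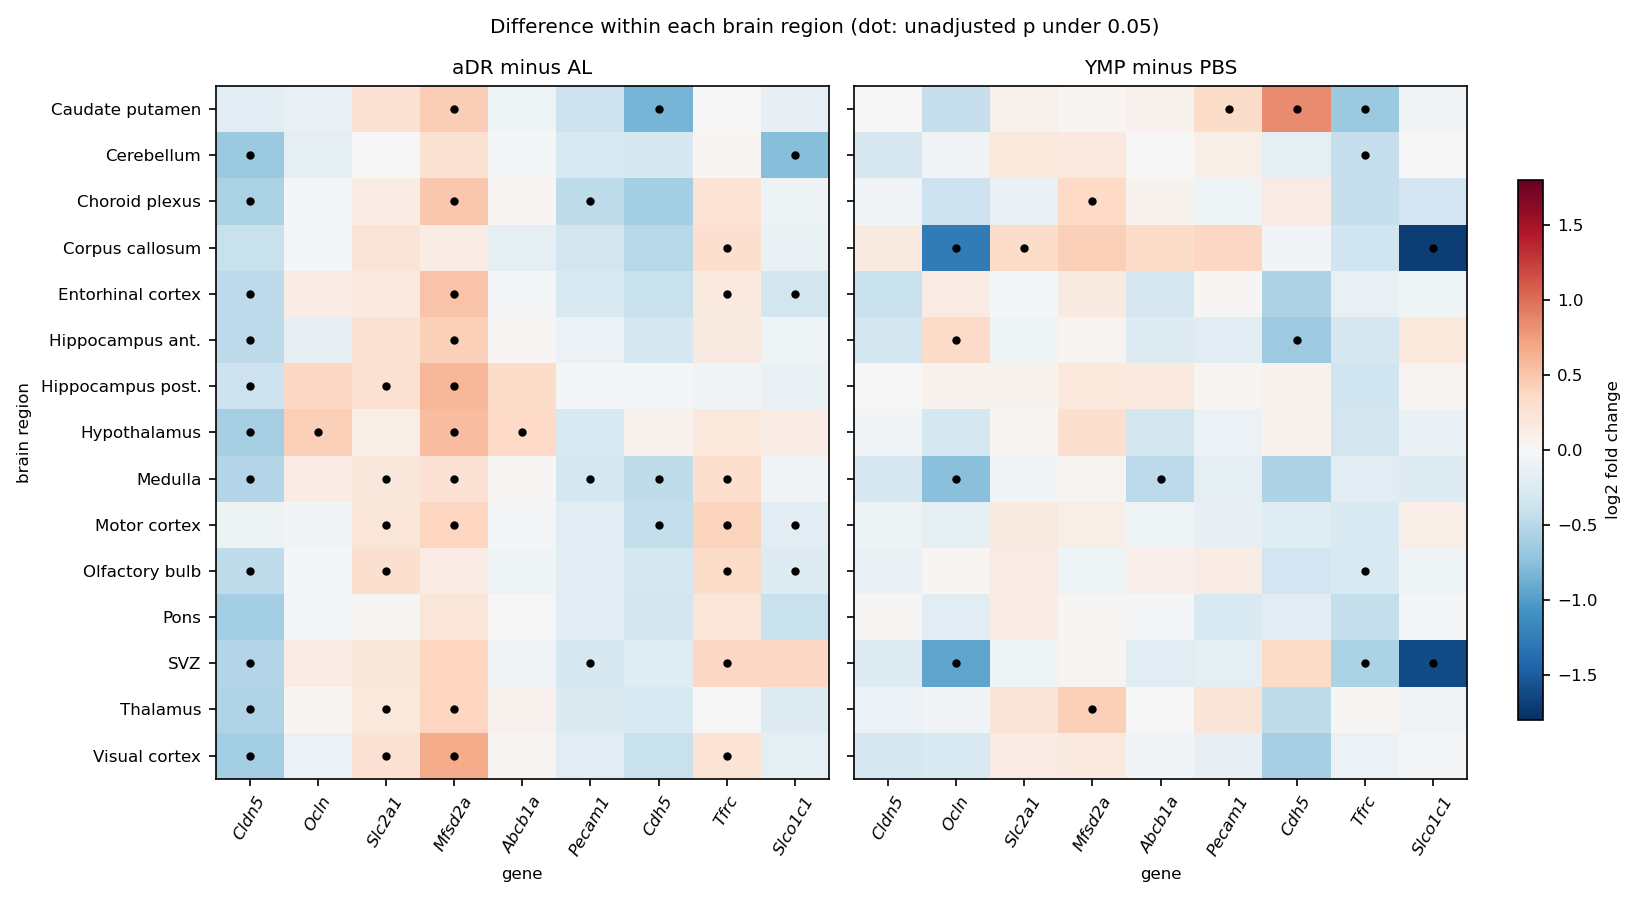
Heat map of the fitted log2 difference of each member (columns) in each brain region, aDR minus AL and YMP minus PBS, blue for lower and red for higher in treated mice, with a dot where the unadjusted edgeR p was under 0.05. The Cldn5 column is blue in all 15 regions for diet and the Mfsd2a column red, and the darkest plasma fields are those of Slco1c1 and Ocln in corpus callosum and SVZ.

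The smallest p-values within regions came from Mfsd2a in visual cortex, with 16.7, 17.9, 12.1, 13.5 and 21.2 CPM in aDR and 12.1, 9.76, 10.1 and 10.4 CPM in AL mice. The difference was 0.67 log2 units (SE 0.145, edgeR adjusted p = 0.0718), and the groups overlapped at 1 aDR and 1 AL mouse. Cldn5 in cerebellum was at 9.41, 11.9, 14.7, 11.7 and 9.87 CPM in aDR and 18.5, 21.9, 16.7 and 14.8 CPM in AL mice (−0.66, SE 0.142, adjusted p = 0.103). Each aDR mouse was below each AL mouse there, and 4.53% of all genes had no overlap in that region. Mfsd2a in entorhinal cortex was at 19.9, 17.4, 17.8, 17.3 and 18.4 CPM in aDR and 13.2, 11.9 and 13.1 CPM in AL mice, without overlap, beside 4.15% of all genes (0.51, SE 0.100, adjusted p = 0.841).

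The calls within regions depended on the tool: DESeq2 called 2 of the 129 member tests it gave an adjusted p for, beside 0.222% of tests over all genes: Cldn5 in cerebellum (−0.66, adjusted p = 0.0148) and Tfrc in motor cortex (0.39, adjusted p = 0.0454). By edgeR 3 were called without aDR mouse 65 and 1 without aDR mouse 62, AL mouse 63 or aDR mouse 64. Of all the regions, the Cldn5 difference was smallest in motor cortex (−0.086) and the Mfsd2a difference smallest in corpus callosum (0.13). Whether the diet effect differed between regions was tested as an interaction. For the 9 members F ran from 0.385 to 1.05, and 0 were called (edgeR, adjusted p = 1 for each), beside 0.0131% of genes.

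The plasma comparison asked whether plasma of young mice changed the genes in old males. Across regions 0 of 9 members were called, as were 0% of 15305 genes by limma, with 1268 genes (8.28%) at an unadjusted p under 0.05. Ocln had the smallest p, with 4.66, 4.63, 4.38 and 4.40 in PBS and 4.15, 4.33 and 4.29 log2 CPM in YMP mice. Each YMP mouse was below each PBS mouse, the only member of 9 without overlap, beside 10% of all genes (−0.26 log2, SE 0.084, unadjusted p = 0.0138, adjusted p = 0.504). Slco1c1 was at 5.57, 5.63, 5.42 and 5.32 in PBS and 5.23, 5.33 and 5.21 in YMP mice, with overlap (−0.23, adjusted p = 0.505). Tfrc was at 5.54, 5.37, 5.32 and 5.87 in PBS and 5.32, 5.31 and 5.11 in YMP mice (−0.28, adjusted p = 0.601). Without choroid plexus, corpus callosum and SVZ the difference was −0.021 for Slco1c1 and −0.13 for Ocln (adjusted p = 0.964 and 0.946), and −0.25 for Tfrc.

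The members called by diet gave small values here. Mfsd2a was at 3.70, 3.63, 3.80 and 3.89 in PBS and 3.82, 3.88 and 4.09 log2 CPM in YMP mice (0.17, SE 0.086, limma adjusted p = 0.625). Cldn5 differed by −0.11 (adjusted p = 0.843) and Cdh5 by −0.12 (adjusted p = 0.831). The differences of Slc2a1 (0.058), Abcb1a (−0.052) and Pecam1 (0.0075) were smaller than their standard errors. With the mouse as a block, Tfrc was the 1 member called (−0.29, adjusted p = 0.0120) among 489 genes (3.20%). The difference between the diet and plasma effects was not tested, because the experiments differ in sex.

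Within single regions 0 of 135 tests were called (edgeR), beside 0.0127% over all genes, and 17 had an unadjusted p under 0.05, beside 6.11% over all genes. The largest difference was that of Slco1c1 in corpus callosum, with 190, 128 and 70.2 CPM in PBS and 40.7 and 41.5 CPM in YMP mice (−1.70 log2, SE 0.364, adjusted p = 0.143). In SVZ it was at 197, 143, 66.6 and 54.0 CPM in PBS and 35.4, 41.4 and 40.3 CPM in YMP mice (−1.60). All YMP libraries were below all PBS libraries in both regions, where the groups did not overlap for 24.8% (corpus callosum) and 14.6% (SVZ) of all genes. Ocln was at 62.3, 50.4, 39.2 and 38.1 CPM in PBS and 20.4, 26.8 and 28.5 CPM in YMP SVZ (−0.94, SE 0.209, adjusted p = 0.125), also without overlap. Tfrc in caudate putamen was at 32.2, 23.7, 22.2 and 32.7 CPM in PBS and 19.5, 16.2 and 16.9 CPM in YMP mice (−0.67, SE 0.163, adjusted p = 0.474). DESeq2 called 3 of 134 member tests, beside 0.373% over all genes: Slco1c1 in corpus callosum (adjusted p = 0.00033) and SVZ (adjusted p = 0.00534) and Ocln in SVZ (adjusted p = 0.00279). By edgeR 2 were called without PBS mouse 84, Slco1c1 and Ocln in corpus callosum.

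Slco1c1 was the 1 member whose plasma effect differed between regions (edgeR interaction, F = 4.37, adjusted p = 0.00517), beside 0.830% of genes, and Ocln was next (adjusted p = 0.180). The call was lost without PBS mouse 76 (adjusted p = 0.0519), YMP mouse 77 (0.153), YMP mouse 81 (0.510) or YMP mouse 73 (0.0623), where 0 members were called. With choroid plexus, corpus callosum and SVZ left out, an alternative chosen after seeing the data, Slco1c1 had F = 0.402 and adjusted p = 1.

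Choroid plexus epithelium markers moved with these differences. The 12 markers, among them Ttr, the transthyretin that carries thyroid hormone, summed in corpus callosum to 19594, 13625 and 5217 CPM in PBS and 10.7 and 25.8 CPM in YMP mice. In SVZ they summed to 20445, 8751, 2829 and 2933 CPM in PBS and 33.9, 34.0 and 73.7 CPM in YMP mice. Over all regions their median difference between YMP and PBS was −1.19 log2 units, with 12 of 12 negative and 0 called by limma. Over both experiments, 30 of the 44 libraries of choroid plexus, corpus callosum and SVZ had a marker sum over 1000 CPM, and Slco1c1 in these was 44.5 to 197 CPM (median 90.1). In the 9 libraries of these regions under 100 CPM it was 30.7 to 41.5 CPM (median 37.9), below every one of the 30. Ocln was 16.1 to 62.3 CPM in the first and 13.0 to 29.1 CPM in the second. The highest Slco1c1 levels of the brain are thus levels of libraries with plexus markers, and how far they are endothelial was not tested.

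**Figure D4:**
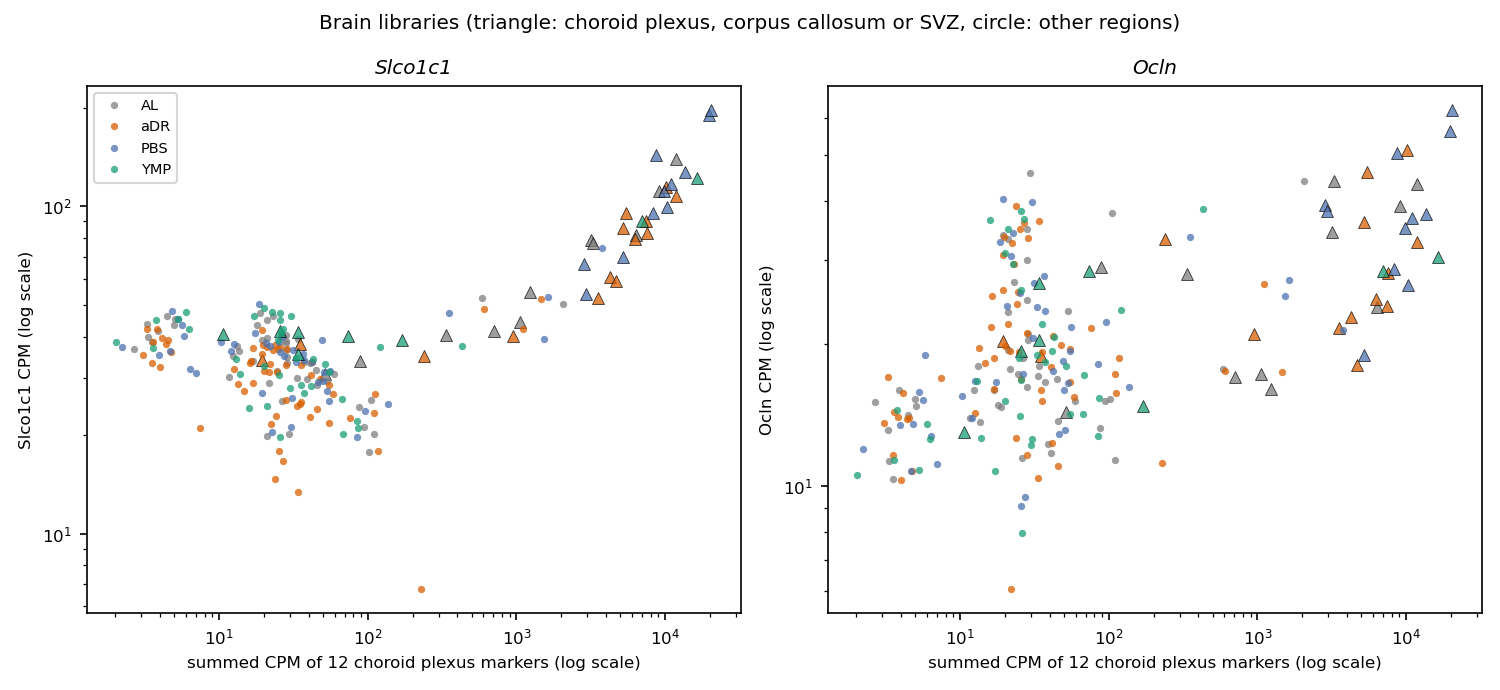
Level of Slco1c1 and of Ocln in each library (CPM) against the summed level of the choroid plexus epithelium markers (CPM), both on log axes, for choroid plexus, corpus callosum and SVZ (triangles) beside the other regions (circles), coloured by treatment. Libraries over 1000 CPM of markers hold the highest Slco1c1 levels, and the corpus callosum and SVZ libraries of YMP mice lie under 100 CPM.

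In the other 12 regions, 166 of 185 libraries had a plexus marker sum under 100 CPM, and Slco1c1 in them ran from 13.4 to 50.4 CPM. There were 6 libraries over 1000 CPM, with Slco1c1 at 39.3 to 74.8 CPM (median 51.2). Highest for both was caudate putamen of PBS mouse 76, at 3741 CPM of markers and 74.8 CPM of Slco1c1. Leaving out choroid plexus, corpus callosum and SVZ thus does not remove every library with plexus markers. In libraries labelled choroid plexus the marker sum was 170 CPM in YMP mouse 73, 1062 CPM in AL mouse 63, 707 CPM in AL mouse 66 and 954 CPM in aDR mouse 67, below the 3515 to 16382 CPM of the other libraries of that region. The other members were not called for an interaction.

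Liver, whose sinusoids have no such barrier, gave a contrast for the same genes. All 9 members were called between liver and the mean of the brain regions in AL mice (edgeR), beside 86.2% of all genes. The adhesion gene Cdh5 was higher in liver by 3.42 log2 units, at 20.6, 37.0, 39.7 and 27.4 CPM in the 4 AL livers. Mfsd2a was higher by 2.15 and Ocln by 1.14, both also made by cells other than endothelium. Abcb1a (0.78) and Pecam1 (0.41) were higher too, but with plain library totals in place of TMM they were at −0.17 and −0.53, and Ocln was at 0.18 (adjusted p = 0.346). That scaling moved the median of all genes from −0.28 to −1.22. Relative to the median of all genes, Abcb1a was at 1.06 with TMM and 1.05 with plain totals, and Pecam1 at 0.69 and 0.69.

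Slc2a1, Tfrc, Cldn5 and Slco1c1 were lower in liver. Slc2a1 was at 15.8, 13.0, 13.5 and 10.6 CPM in AL livers, a difference of −3.24 log2 units, the difference of Tfrc was −1.63 and that of Cldn5 −0.71. Slco1c1 had 1 count in the 4 AL livers together, a brain-to-liver ratio of pooled CPM of 776 with a 95% Poisson interval of 139 to 30668, which covers counting error only. In the 5 DR livers it had 0 counts. The mean AL brain level of 41.1 CPM was 273-fold higher than an assumed floor of 3 counts over the DR livers. It was 222-fold higher than the upper bound of their 95% Poisson interval. Of all members, Slco1c1 was therefore the one nearly absent from liver.

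**Figure D5:**
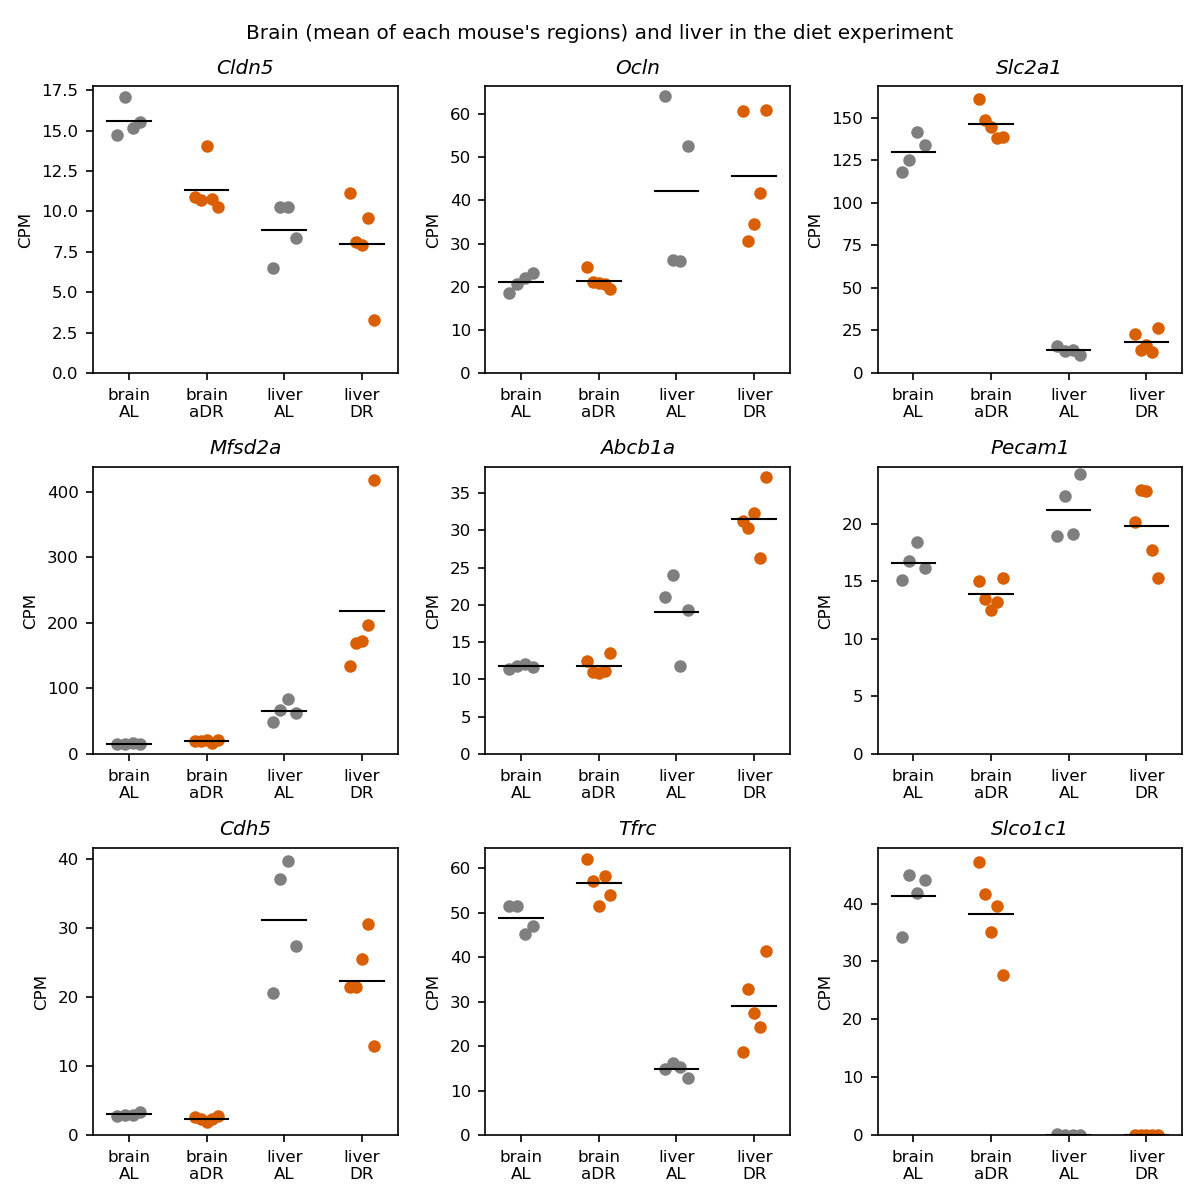
Level of each member in liver and brain of each diet mouse, in CPM on a linear axis from 0, where points are mice, bars are means and the brain value is the plain mean of the mouse's regions. Cdh5 and Mfsd2a lie higher in liver, Slc2a1 and Slco1c1 lie lower, and liver Mfsd2a is higher in each DR mouse than in each AL mouse.

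In liver too Mfsd2a was at higher values in restricted mice, a comparison added after its levels were seen. It was at 135, 169, 173, 198 and 418 CPM in DR and 48.2, 66.9, 83.8 and 62.0 CPM in AL livers, without overlap. The difference was 1.77 log2 units (SE 0.325, edgeR adjusted p = 0.0689, and 3.47e-05 by DESeq2). With each mouse left out the difference ran from 1.41 to 1.92 log2 units, and it was called without DR mouse 61 (adjusted p = 0.0358) or DR mouse 67 (0.0349). Tfrc was at 18.6, 32.9, 27.4, 24.4 and 41.3 CPM in DR and 15.0, 16.3, 15.3 and 12.9 CPM in AL livers (1.0, adjusted p = 0.103). Abcb1a was at 31.3, 30.3, 32.3, 26.3 and 37.2 CPM in DR and 21.1, 24.0, 11.8 and 19.3 CPM in AL livers (0.75, adjusted p = 0.157). These 2 genes were also without overlap, making 3 of the 8 members tested, beside 4.04% of all genes.

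Of the 8 members tested in liver 0 were called by edgeR, beside 0.220% of 11815 genes, and DESeq2 called 3, beside 1.65% of 13606 genes. Cldn5, lower in the brain of the restricted mice, differed in liver by −0.14 (edgeR adjusted p = 0.969). Slc2a1 differed by 0.51 (adjusted p = 0.550), Ocln by 0.15 (adjusted p = 0.959), Pecam1 by −0.066 (adjusted p = 0.972) and Cdh5 by −0.46 (adjusted p = 0.705). Slco1c1 had too few counts to be tested.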

How the data were processed

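The authors deposited read counts per gene, whole numbers in a single table of 21076 genes and 238 libraries. Per the submitters' processing notes Trim Galore 0.3.7, STAR 2.5.3a and DESeq2 were used with build GRCm38; the annotation and the counting program are not given in the sources used here. Per the labels' protocols the libraries were unstranded Smart-Seq2 and Nextera XT libraries from RNeasy RNA, and no molecular identifiers are mentioned. No header names a sequencing batch. Library totals were 0.606 to 32.4 M counts (M, mega), and 537 genes had no count in any library.

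Counts were tested with edgeR 4.0.16 (quasi-likelihood, TMM, genes kept at a count of at least 10 with a total of at least 15), limma 3.58.1 and, as an alternative, DESeq2 1.42.0, in R 4.3.3. P-values were adjusted over all genes by Benjamini-Hochberg, with calls under 0.05. Within regions and between regions the libraries were fitted by edgeR. Across regions, log2 CPM (prior count 2) was fitted on region and mouse, and the mouse values were tested by limma. This keeps mouse as the replicate, because same-numbered libraries come from the same animal. As a check, mean r of gene deviations between libraries of 1 mouse was 0.041 in the diet and 0.074 in the plasma experiment, against −0.0050 and −0.012 between mice. The alternative with the mouse as a block used all libraries in limma, with the same correlation within mice for all genes.

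All 9 members are described. Of other lists the called genes are named, at most 4 by smallest p, and where none is called at most 2. Genes like a member are the 3 of highest r, and co-varying genes the 10 of highest r, some of which are not reported here. The members and the lists were chosen with earlier results of these data known. On simulated counts for the diet comparison across 15338 genes, 90% of changes of 0.25 log2 units and 100% of 0.5 were recovered, with 4 false calls. These counts were drawn without differences between mice, and genes of low level were not among those changed. Recovery where mice differ, as in the real data, was not tested. Alternatives were DESeq2, plain totals, no filter, another prior count, single regions or small libraries left out, and each mouse left out.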

Additional observations from a re-analysis of the deposited data

Results flagged for a closer look

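Of 51 groups of samples checked for a sample far from the others, 3 held one; chance alone gives about 1 in 20. Slco1c1 over the brain regions was lower in AL mouse 63 than in the other AL mice, at 5.10 against 5.35 to 5.39 log2 CPM, a gap of 0.888 of the whole range. Plexus markers of AL mouse 63 summed to 51.9 CPM in corpus callosum, against 1239 and 11839 CPM in AL mice 69 and 66. In SVZ they summed to 88.4 CPM, against 336 to 3284 CPM in the other AL mice. In choroid plexus AL mouse 66 was lower, at 707 against 1062 CPM. Their part in the gap was not tested. Mfsd2a in liver of DR mouse 67 was 418 CPM against 134.5 to 198 CPM in the other DR livers, a gap of 0.778 of the range. Slco1c1 in liver was 0.211 CPM in AL mouse 63, from 1 count, and 0 in the other AL livers, so the gap was 1 of the range. Any count in only 1 of the libraries gives that gap, so the rate of 1 in 20 does not hold for this group.

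The plasma effect on Slco1c1 differed between regions in the edgeR interaction test (adjusted p = 0.00517), and the plexus markers given beside it moved with it. For Cdh5 all YMP libraries were below all PBS libraries in 2 regions and above them in 2 regions, and for Pecam1 below in 2 and above in 1. The plasma groups did not overlap for 24.8% of all genes in corpus callosum and 14.6% in SVZ. Plexus markers also differed between the groups in these regions, so the shares are no measure for other regions. For the other regions this share was not computed in the plasma experiment. The edgeR interaction did not call either gene (adjusted p = 0.805 for Cdh5 and 0.872 for Pecam1).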

How the results depend on the processing

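Pooled over all results, direction and side of the threshold held for most alternatives tried. The diet calls of Cldn5 and Mfsd2a and the plasma interaction of Slco1c1, however, were lost when certain single mice were left out. Within single regions, the members called by diet numbered 2 with DESeq2, 2 without a filter on low counts and 1 with a robust spread, and 0 to 3 when each mouse was left out. By plasma they numbered 3 with DESeq2, 1 without a filter and 0 to 2 with each mouse left out. Across regions, the replicate block on the mouse called 6 members by diet and 1 by plasma, the fit without any block or mouse term 6 and 4 (beside 18.2% and 17.1% of all genes), and leaving out each mouse 0 to 3 by diet. The block kept all 55 region calls in AL and all 50 in PBS mice and changed no call of the interaction. The plasma interaction called 0 to 1 members with each mouse left out and 0 without choroid plexus, corpus callosum and SVZ, where the removal of the plexus-rich regions was chosen after seeing the data. Of region calls, plain totals kept 49 of 55 and 48 of 50, and leaving out 1 mouse kept 36 to 46 and 39 to 44.

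Differences near 0 changed sign with the mouse left out. By diet Ocln ran from −0.018 without AL mouse 63 to 0.078, and Abcb1a from −0.051 without aDR mouse 67 to 0.039, and Abcb1a was −0.011 with plain totals. By plasma Slc2a1 ran from −0.0055 without YMP mouse 77 to 0.16, Abcb1a from −0.13 to 0.048 without PBS mouse 72, and Pecam1 from −0.028 without PBS mouse 76 to 0.058, with −0.012 when corpus callosum was left out. In liver against brain, plain totals gave −0.17 for Abcb1a and −0.53 for Pecam1. The cause was not tested. Cdh5 was limited by depth, with a median of 22 counts per brain library, and the 3 to 5 mice per group limit every comparison.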
